A study of Homo sapiens with 14 samples.

Results

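The genes described here are the protein-coding genes of human chromosome 19 whose symbol is ZNF followed by digits and at most 1 letter. On GRCh38 they numbered 246 of 20037 protein-coding genes. They were chosen by name and position alone, and each was read as a gene span with 1 kb on either side of both ends, with the ends kept apart from the gene body between them. The lists came from chromatin immunoprecipitation and sequencing in HS-SY-II, a human synovial sarcoma cell line whose genotype the labels give as WT. An antibody to GLTSCR1, a subunit of GBAF, 1 of the BAF family of chromatin remodelling complexes, gave 5 libraries: DMSO vehicle and WA-68 at 100 nM for 12, 24, 48 and 96 h. WA-68 is a PROTAC, a compound that marks BRD9, another GBAF subunit, for degradation. An anti-HA antibody to the tagged SS18::SSX fusion, the oncoprotein of synovial sarcoma, gave 4 libraries: DMSO and WA-68 at 100 nM for 12, 24 and 48 h. The sources used here do not say how the tag was brought into the cells or how long the DMSO cells were kept, so time in culture and time in WA-68 cannot be told apart. The 5 input libraries were not analysed here.

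ZNF genes encode C2H2 zinc finger proteins, whose fingers each contact a few bases of DNA. Many of those on chromosome 19 also carry a KRAB domain, which recruits TRIM28 and, through it, the H3K9 methyltransferase SETDB1, HP1 proteins and histone deacetylases. They arose by repeated tandem duplication and lie in clusters, and many of their products silence transposable elements. The bodies and far ends of many of these genes are known to carry H3K9me3, while their promoters are CpG-rich and active in most cells.

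Each group was 1 library, so no test between conditions was possible and none is given. The 5 GLTSCR1 lists held 18037 regions in DMSO, then 16021, 15330, 13677 and 15611 in order of time, and the fusion lists held 24953, 28619, 24846 and 26405. On chromosome 19 the GLTSCR1 lists held 647, 565, 357, 332 and 449 regions and the fusion lists 767, 758, 674 and 679. A region missing from a list was below the authors' calling threshold in that library. Intervals below are exact Clopper-Pearson 95% intervals and cover counting error only. Where a count was 0, the upper limit given is instead 3 divided by the number of genes, an approximate limit. Neighbouring genes can share a region, so members are not independent of each other.

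Promoter sequences are shown for 8 members that had a GLTSCR1 region at an end in DMSO: 5 of the 6 that kept one at every time, and 3 of the 17 that had none at any later time. They are RefSeq sequences on GRCh38.p14, 250 bases before to 50 bases after the start, 5′ to 3′ on the gene's own strand. The table held such a promoter for 216 of the 246 members. Capitals mark matches, on either strand, to CCAAT (the box read by NF-Y), GGGCGG (a GC box), CCGGAAG (an ETS-type site), TGACGTCA (a CRE) or TGANTCA (an AP-1-type site), so that CCAAT may also stand as ATTGG and GGGCGG as CCGCCC. No matches to different motifs overlapped in these 8. The first 5 belong to genes with a GLTSCR1 region at an end in all 5 lists.
ZNF562, chr19:9675051-9675350, minus strand: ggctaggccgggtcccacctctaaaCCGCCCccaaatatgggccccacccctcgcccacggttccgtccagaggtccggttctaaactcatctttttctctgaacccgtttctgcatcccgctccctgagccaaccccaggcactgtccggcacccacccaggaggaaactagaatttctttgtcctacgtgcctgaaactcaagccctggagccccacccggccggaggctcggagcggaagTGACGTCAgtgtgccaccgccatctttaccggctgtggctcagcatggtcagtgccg
ZNF536, chr19:30225342-30225641, plus strand: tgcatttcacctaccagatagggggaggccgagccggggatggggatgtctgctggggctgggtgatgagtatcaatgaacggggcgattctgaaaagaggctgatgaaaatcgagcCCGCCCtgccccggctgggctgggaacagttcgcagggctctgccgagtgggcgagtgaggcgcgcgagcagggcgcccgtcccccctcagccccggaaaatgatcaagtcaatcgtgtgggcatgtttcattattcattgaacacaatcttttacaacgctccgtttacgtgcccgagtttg
ZNF497, chr19:58362702-58363001, minus strand: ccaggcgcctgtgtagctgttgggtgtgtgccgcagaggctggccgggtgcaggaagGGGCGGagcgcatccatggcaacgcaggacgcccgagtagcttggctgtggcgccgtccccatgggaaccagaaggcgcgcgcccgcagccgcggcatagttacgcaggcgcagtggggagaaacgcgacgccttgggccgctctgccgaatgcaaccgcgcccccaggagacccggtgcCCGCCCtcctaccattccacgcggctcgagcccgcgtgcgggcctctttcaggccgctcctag
ZNF627, chr19:11597233-11597532, plus strand: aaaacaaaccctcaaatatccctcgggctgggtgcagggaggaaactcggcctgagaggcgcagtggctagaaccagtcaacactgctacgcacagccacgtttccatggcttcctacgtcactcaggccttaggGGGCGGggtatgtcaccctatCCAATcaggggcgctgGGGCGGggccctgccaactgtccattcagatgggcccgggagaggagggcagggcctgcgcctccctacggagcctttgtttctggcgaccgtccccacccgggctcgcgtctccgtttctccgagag
ZNF837, chr19:58380981-58381280, minus strand: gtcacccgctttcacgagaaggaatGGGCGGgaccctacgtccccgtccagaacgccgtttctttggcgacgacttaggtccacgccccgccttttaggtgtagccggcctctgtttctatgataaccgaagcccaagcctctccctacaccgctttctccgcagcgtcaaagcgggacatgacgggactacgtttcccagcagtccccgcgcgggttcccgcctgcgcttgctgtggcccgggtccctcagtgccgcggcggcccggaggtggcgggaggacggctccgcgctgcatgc
The last 3 belong to genes with a GLTSCR1 region at an end in DMSO alone.
ZNF614, chr19:52028330-52028629, minus strand: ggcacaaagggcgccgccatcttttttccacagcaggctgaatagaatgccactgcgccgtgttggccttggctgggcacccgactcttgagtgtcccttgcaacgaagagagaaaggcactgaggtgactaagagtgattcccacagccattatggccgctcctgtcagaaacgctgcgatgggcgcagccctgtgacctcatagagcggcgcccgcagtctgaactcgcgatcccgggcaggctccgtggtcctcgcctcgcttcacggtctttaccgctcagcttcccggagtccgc
ZNF611, chr19:52734995-52735294, minus strand: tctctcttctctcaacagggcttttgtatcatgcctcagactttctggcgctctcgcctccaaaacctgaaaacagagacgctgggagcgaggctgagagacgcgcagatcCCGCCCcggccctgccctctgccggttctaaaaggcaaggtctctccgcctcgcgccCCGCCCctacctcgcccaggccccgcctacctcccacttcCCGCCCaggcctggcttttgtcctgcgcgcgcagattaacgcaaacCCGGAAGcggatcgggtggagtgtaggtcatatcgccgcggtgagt
ZNF443, chr19:12440972-12441271, minus strand: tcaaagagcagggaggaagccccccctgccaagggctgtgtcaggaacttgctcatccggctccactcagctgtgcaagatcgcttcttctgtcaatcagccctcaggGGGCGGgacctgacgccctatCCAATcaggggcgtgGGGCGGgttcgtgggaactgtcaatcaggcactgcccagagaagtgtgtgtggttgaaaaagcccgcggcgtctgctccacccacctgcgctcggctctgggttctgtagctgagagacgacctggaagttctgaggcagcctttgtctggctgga
All 8 windows overlapped a GLTSCR1 region in DMSO. Those of ZNF562, ZNF536, ZNF497 and ZNF837 did so in all 5 GLTSCR1 lists, and that of ZNF627 in all but the 96 h list. The window of ZNF536 also overlapped a fusion region in all 4 fusion lists.

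In DMSO, GLTSCR1 had a region within 1 kb of an end of 53 of the 246 ZNF genes (21.5%, interval 16.6 to 27.2%), against 31.1% of all protein-coding genes. At 12 h of WA-68 the count was 42 (17.1%), against 26.6% of all genes. At 24 h it was 20 (8.13%), against 14.7%, and at 48 h it was 9 (3.66%, interval 1.69 to 6.83%), against 11.1%. At 96 h it was 24 (9.76%, interval 6.35 to 14.2%), against 15.2%. The members' count was thus lowest in the 48 h list, as was the background, and higher again in the 96 h list, where it stood below the DMSO count. In every GLTSCR1 list the members' whole interval was below the share of all genes. The lists of each antibody were also held to the same number of regions, those of highest −log10 q. The members' counts were then 35 in DMSO, then 40, 18, 9 and 23. The order of DMSO and 12 h was thus turned round and the 48 h count stayed lowest. Shares of all genes were not computed under this setting, so whether these orders are particular to the members is not known.

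The fusion was at an end of fewer members. It was called at 19 of 246 in DMSO (7.72%, interval 4.71 to 11.8%), against 19.3% of all genes. At 12 h it was at 20 (8.13%), against 18.6%. At 24 h it was at 7 (2.85%), against 16.6%, and at 48 h at 8 (3.25%, interval 1.41 to 6.31%), against 18.6%. With a −log10 q of at least 5 the members' counts were 12, 13, 6 and 6, and the shares of all genes at that setting were not computed. The intervals of the members in DMSO and at 48 h overlapped, and the share of all genes stayed between 16.6% and 19.3% throughout.

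ZNF genes elsewhere in the genome had higher shares than these. The 263 ZNF genes of other chromosomes, chosen by the same symbol rule, had GLTSCR1 at an end in 38.4% in DMSO, then 40.3%, 20.5%, 17.5% and 20.5%. They had the fusion at an end in 16.7%, 17.1%, 13.7% and 17.1%. The 1205 other protein-coding genes of chromosome 19 had GLTSCR1 at an end in 27.6%, 24.6%, 10.5%, 9.05% and 13.1%, and the fusion in 24.7%, 24.1%, 20% and 19.8%. In each of the 9 lists the members had the lowest share of these sets; the difference was not tested.

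**Figure D1:**
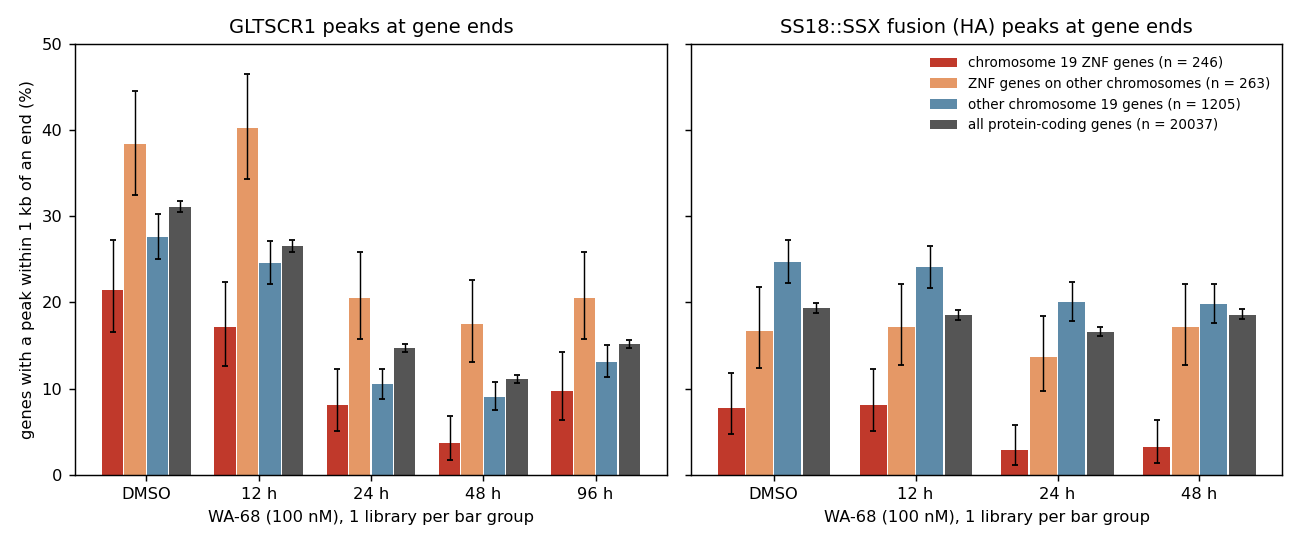
Share of genes with a region within 1 kb of an end (y axis, percent) in each list (x axis, DMSO to 96 h), for GLTSCR1 and for the fusion, for the chromosome 19 ZNF genes and 3 comparison sets; error bars are exact 95% intervals of counting error. The members lie lowest in all 9 lists, with 21.5% in DMSO and 3.66% at 48 h for GLTSCR1.

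Most members had no region at all. No list held a region anywhere over the span or the 1 kb beside it for 161 of the 246 (65.4%, interval 59.1 to 71.4%), against 44.4% of all protein-coding genes. The share was 40.7% for ZNF genes of other chromosomes and 41.6% for the other genes of chromosome 19. The part of gene length in these shares was not tested; the median span was 23.2 kb for the members, 24.7 kb for ZNF genes of other chromosomes, 12.8 kb for the other genes of chromosome 19 and 24.1 kb for all genes. Among the members without a region were ZNF91 and ZNF93, which silence SVA and LINE-1 elements, and ZNF274, which brings SETDB1 to the far ends of other ZNF genes; these 3 were looked up for their known roles, with earlier results in view.

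No list held an end region for 172 members (69.9%), against 51.8% of all genes. The other 74 had an end region in at least 1 list, and 11 of the 172 had a region in the body and never at an end (4.47% of members, against 7.42% of all genes). GLTSCR1 was at an end in at least 1 list for 67 (27.2%), against 38.2% of all genes, and the fusion for 30 (12.2%), against 31.6%. Both proteins were seen for 23 (9.35%), against 21.7%, and the fusion alone for 7 (2.85%), against 9.91%. GLTSCR1 alone was seen for 44 (17.9%), near the 16.5% of all genes. GLTSCR1 and the fusion were at an end of the same member in 12 cases in DMSO, against 12.9% of all genes (4.88% of members). The count was 13 at 12 h (5.28%), against 9.56%, then 3 at 24 h (1.22%), against 5.83%, and 2 at 48 h (0.813%), against 6.77%. In DMSO, 12 of the 53 members with GLTSCR1 carried the fusion (22.6%), against 41.6% of all genes with GLTSCR1. Of the 19 with the fusion, 12 carried GLTSCR1 (63.2%), close to the 66.9% of all genes with the fusion. ZNF536 was at an end in all 9 lists, as was no other member.

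**Figure D2:**
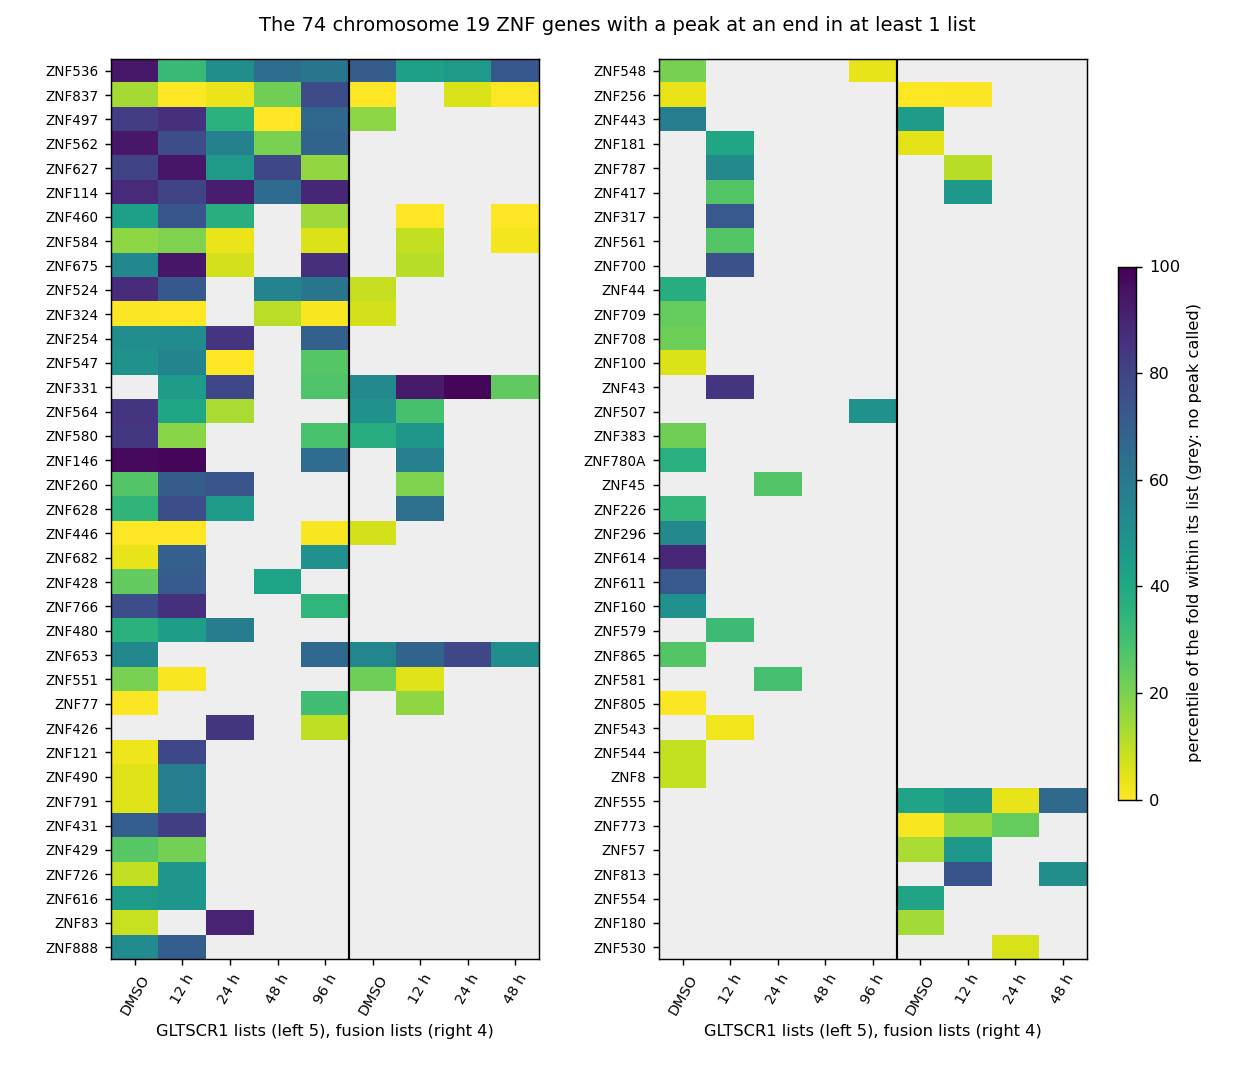
Percentile of fold within its own list (colour) of the strongest region at an end, for the 74 members with an end region in at least 1 list (rows), in each of the 9 lists (columns, GLTSCR1 then fusion); grey cells had no region at an end. The GLTSCR1 DMSO column is filled for 53 members and its 48 h column for 9, and the ZNF536 row is filled in all 9 columns.

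Regions sat at starts. Strand was known for the 216 members with a promoter entry, and GLTSCR1 was at the start end of 48 of these in DMSO (22.2%), against 30.5% of genes with a known strand. It was at the far end of 3 (1.39%), against 3.69%. The fusion was at the start end of 16 (7.41%), against 17.4%, and at the far end of 2 (0.926%), against 4.27%. In the later lists the far end held GLTSCR1 in 0 to 2 members, against 2.32% to 3.14% of genes with a known strand, and the fusion in 1 or 2, against 4.08% to 4.53%. The 0 of 216 at 24 h and at 48 h allow a share of up to 1.39% each. Of the 3 far-end GLTSCR1 regions in DMSO, 2 lay within 1 kb of the start of another gene.

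Among members with a GLTSCR1 region at the start end alone, the strongest summit in DMSO lay at a median of 182 bp inside the gene from that end, with 38 of 46 within 500 bp. Summits lay on both sides, from -1019 to 1015 bp, where negative values are outside the gene. The median was 139, -53.5, -77 and 89.5 bp in the 12, 24, 48 and 96 h lists. For the fusion it was -94.5 bp in DMSO over 16 members, and 192, 162 and 228 bp at 12, 24 and 48 h over 17, 6 and 7 members. In every list the median was within 250 bp of the start end. The regions were chosen for lying within 1 kb of that end, which bounds these distances. The regions were narrow, with a median width at member ends of 0.482 kb in the GLTSCR1 DMSO list, against 0.568 kb for the whole list.

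**Figure D3:**
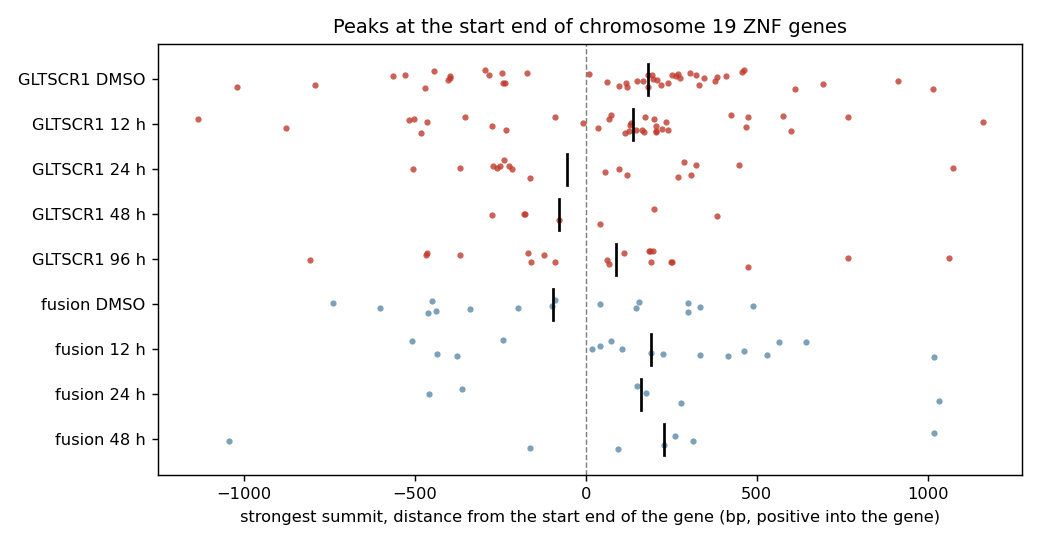
Distance of the strongest summit from the start end of the gene (x axis, base pairs, positive inside the gene) for members with a region at the start end alone, in each list (rows); points are members and bars are medians. Summits lie on both sides of 0, with a median of 182 bp in the GLTSCR1 DMSO list and -94.5 bp in the fusion DMSO list.

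Gene bodies held few regions of their own. GLTSCR1 was in the body and at neither end of 9 members in DMSO (3.66%), against 6.14% of all genes. The 12 h count was 9, against 6.89%, the 24 h count 3 (1.22%), against 9.04%, and the 96 h count 5 (2.03%), against 8.25%. At 48 h the count was 0 of 246, which allows a share of up to 1.22%, against 7.1%. The fusion was in the body alone of 4 members in DMSO (1.63%), against 4.86%, 5 at 12 h (2.03%), against 5.34%, 4 at 24 h (1.63%), against 4.98%, and 1 at 48 h (0.407%), against 4.86%. Of the 9 body regions of GLTSCR1 in DMSO, 8 lay within 1 kb of a listed start of the same gene, and 3 lay at the start of another gene. Listed starts were known for 216 of the members. Counting every listed start within 1 kb in place of the ends gave 56 of these in DMSO, then 41, 16, 7 and 21 for GLTSCR1. Of the same 216, 49 had GLTSCR1 at an end in DMSO, then 37, 18, 7 and 22.

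The member with the highest body fold was ZNF565. It had a GLTSCR1 fold enrichment of 13.1 in DMSO, 13.7 at 12 h, 6.97 at 24 h, elsewhere in the body, and 5.61 at 96 h, with none at 48 h. The DMSO region, chr19:36214627-36216034, lay within 1 kb of the start of ZNF146, which encodes a protein made up mostly of zinc fingers, so both genes were counted on 1 region. ZNF358 had body values of 8.50, 4.89 and 8.17 in the DMSO, 12 h and 24 h lists and 4.23 in the 96 h list, and its listed start lies 2223 bp inside its span. ZNF581 had 7.37 in its body in DMSO, in a region shared with the start of ZNF580, and 4.15 at its start end at 24 h. The listed start of ZNF581 lies 8646 bp inside its span from that end. ZNF574 had 6.003 in DMSO, 8.51 at 12 h and 4.06 at 24 h. All 4 lacked a GLTSCR1 body or end region at 48 h.

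For the fusion, the body regions of DMSO gave 4.65 for ZNF575, 4.19 for ZNF442, 4.19 for ZNF581 and 3.03 for ZNF584. Each of these 4 genes also had a GLTSCR1 region in DMSO. It gave 4.75 in the body of ZNF575, 5.41 in the body of ZNF442 and 7.37 in the body of ZNF581. For ZNF584 it gave 3.72 at an end and a higher value, 4.69, in the body. The listed promoter of ZNF584, with its start 7091 bp inside the span, overlapped regions of both proteins in DMSO.

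Following the 53 members with GLTSCR1 at an end in DMSO, 32 still had it there at 12 h (60.4%, interval 46.0 to 73.5%), against 69.3% of all such genes. At 24 h it was 16 (30.2%), against 42%, at 48 h 9 (17.0%, interval 8.07 to 29.8%), against 32%, and at 96 h 21 (39.6%, interval 26.5 to 54.0%), against 42.6%. All 9 members called at 48 h were among the 53. Of the 24 called at 96 h, 21 were, so the higher count at 96 h than at 48 h came mostly from members already called in DMSO. This was not particular to the members. Over all protein-coding genes, 1995 of the 2230 called at 48 h and 2657 of the 3037 called at 96 h had a region in DMSO.

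Of the 19 members with the fusion at an end in DMSO, 10 still had it at 12 h (52.6%, interval 28.9 to 75.6%), against 64% of all such genes. At 24 h it was 6 (31.6%, interval 12.6 to 56.6%), against 60.5%, and at 48 h 5 (26.3%, interval 9.15 to 51.2%), against 65.8%. The 24 h and 48 h intervals lay below the share of all genes. Of the 227 members without the fusion in DMSO, 1 had it at 24 h (0.441%), against 6.07% of all such genes, and 3 at 48 h (1.32%), against 7.34%. Asked of the regions rather than the genes, 51 distinct GLTSCR1 regions of DMSO, the strongest at the ends of each member, were tracked, and 29 were overlapped by a region at 12 h (56.9%), against 55.8% of all DMSO regions. The later lists gave 16 (31.4%), against 47.6%, then 9 (17.6%), against 43.2%, and 18 (35.3%), against 48.6%. For the 18 fusion regions the counts were 6 (33.3%), against 72.3% of the list, then 5 (27.8%), against 64.7%, and 4 (22.2%), against 68.8%.

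The members' regions had lower folds in DMSO than those of all genes, and among all genes regions of lower fold were less often called again later. The median fold at member ends was 4.37 for GLTSCR1 in DMSO (2.48 to 13.1), against 5.62 for all genes with an end region, and its median percentile within the list was 34.4, against 63.6. In the 12 h list the members' median was 5.14, against 5.28, in the 24 h list 4.71, against 5, in the 48 h list 4.73, against 5.3, and in the 96 h list 4.64, against 5.05. For the fusion the median was 3.57 in DMSO, against 4.61, with percentiles of 17 and 50.1. These folds are the authors' and are compared within a list alone.

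Genes were also split into 4 bins by the percentile of their DMSO fold, each spanning 25 percentile points. In the lowest GLTSCR1 bin, 11 of 22 members still had an end region at 12 h (50%), against 49.4% of all genes, then 3 (13.6%), against 22.8%, 3 (13.6%), against 13.2%, and 7 (31.8%), against 21%. In the second, 7 of 12 members did at 12 h (58.3%), against 56.7%, then 5 (41.7%), against 25.6%, 0, against 15.9%, and 2 (16.7%), against 26%. In the third, 4 of 8 members did at 12 h (50%), against 65%, then 2 (25%), against 33.5%, 0, against 25.5%, and 3 (37.5%), against 35.8%. The members were thus above all genes in some of these bins and times and below them in others. In the highest bin it was 10 of 11 at 12 h (90.9%), against 88.3%, then 6 (54.5%), against 66%, 6 (54.5%), against 54.2%, and 9 (81.8%), against 66.6%. With so few members the intervals were wide, and in every GLTSCR1 bin and time they included the share of all genes. The 0 of 12 and 0 of 8 at 48 h allow shares of up to 25% and 37.5%.

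For the fusion, 11 of the 19 members were in the lowest bin and none in the highest. In that lowest bin 4 remained at 12 h (36.4%), against 44.4%, 2 at 24 h (18.2%), against 39.2%, and 1 at 48 h (9.09%, interval 0.23 to 41.3%), against 49%. In the second bin 3 of 5 remained at 12 h (60%), against 50.9%, then 1 (20%), against 44.8%, and 1 (20%), against 52%. In the third, all 3 members remained at each time, against 67.4%, 66.2% and 69.4%. The part of region strength in the members' shares was not tested beyond these bins.

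**Figure D4:**
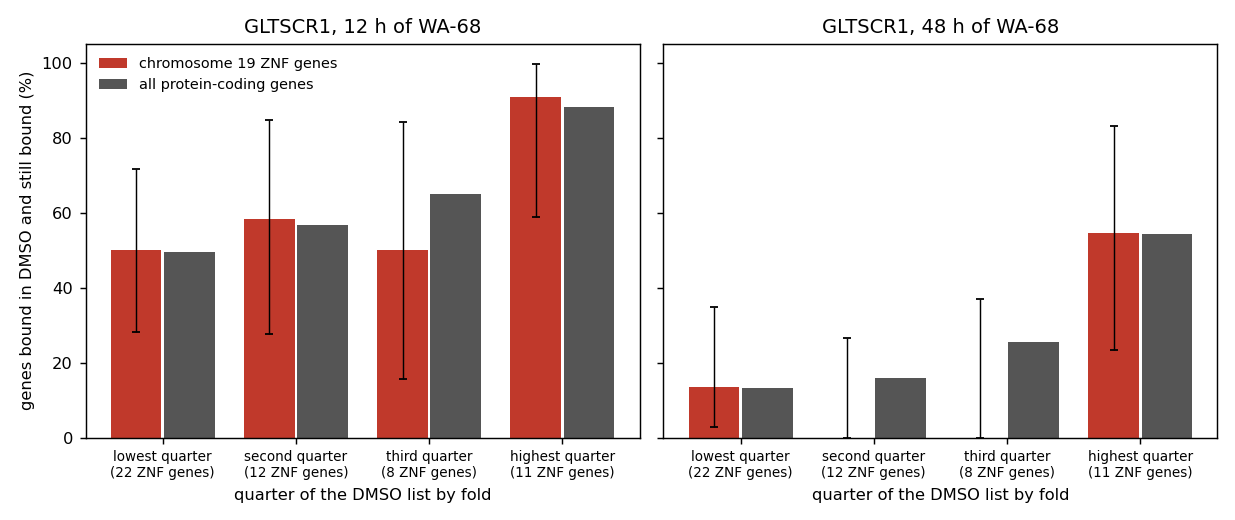
Share of genes with a GLTSCR1 end region in DMSO that still had one at 12 h (left) and 48 h (right) of WA-68 (y axis, percent), in 4 bins of DMSO fold percentile from lowest to highest (x axis), for the members and for all protein-coding genes; error bars on the members are exact 95% intervals. In the highest bin 90.9% of members and 88.3% of all genes remained at 12 h, and no member of the 2 middle bins remained at 48 h.

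GLTSCR1 was at an end in DMSO and at every later time in 6 members (2.44%), against 6.29% of all genes. Of the 53 with it in DMSO this was 11.3%, against 20.2%. ZNF562 had a fold enrichment of 9.76 in DMSO, then 6.35, 5.08, 4.01 and 5.83 at 12, 24, 48 and 96 h, with its highest value in DMSO, and had no fusion region. ZNF114 had 8.07, 6.65, 8.63, 5.72 and 8.21 in the same order. ZNF627 had 6.82, 9.62, 4.71, 6.71 and 3.79, with its highest value at 12 h. ZNF497 had 7.12, 7.49, 4.34, 2.69 and 5.73, and had the fusion at an end in DMSO alone, at 3.57. The 48 h value was the lowest of the 5 for ZNF562, ZNF114 and ZNF497. ZNF837 had 3.61, 2.59, 3.02, 4.05 and 6.45, the one member of the 6 with its highest value at 96 h. Folds of different lists carry each library's own background, so these orders describe the lists. Without the 48 h list the count of members with GLTSCR1 throughout was 11 in place of 6.

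ZNF536, a transcriptional repressor of neuronal differentiation, was the sixth. At its end, GLTSCR1 values were 9.70 in DMSO, then 4.28, 4.86, 5.65 and 5.40. Fusion values there were 5.58 in DMSO, then 4.30, 4.52 and 5.82 at 12, 24 and 48 h. In its body, GLTSCR1 had 9.70 in DMSO, from the same region as at its end, then 7.48, 11.8, 12.3 and 7.86. The body values of the fusion ran from 7.80 in DMSO to 6.48 at 48 h. In every later list of either protein the body value was above the end value, so the end values do not describe the whole gene. Its GLTSCR1 DMSO region at the end, chr19:30224132-30228565, was 4.434 kb wide, the widest at any member end in any list. Its span of 488 kb was the longest of the members, and it lay alone, over 1 Mb from any other member. It was thus a gene apart from the ZNF clusters where both proteins were called in every list.

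In 17 members GLTSCR1 was at an end in DMSO and at no later time (6.91%), against 6.79% of all genes. Of the 53 with it in DMSO this was 32.1% (interval 19.9 to 46.3%), against 21.8% of all genes with it in DMSO. The 4 with the highest DMSO fold were ZNF614 at 8.26, ZNF611 at 6.15, ZNF443 at 5.31 and ZNF296 at 5.08. ZNF296 encodes a zinc finger protein whose mouse counterpart binds heterochromatin in pluripotent cells. ZNF443 also had the fusion at an end in DMSO alone, at 4.44. No member had GLTSCR1 at an end at every later time without DMSO, against 0.225% of all genes, and 0 of 246 allows a share of up to 1.22%.

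Between these extremes, the next members are named for their order of lists, after their values were seen. ZNF675, ZNF254, ZNF460, ZNF547 and ZNF584 had GLTSCR1 at an end in all lists but that of 48 h. ZNF675 had 5.12 in DMSO, then 9.61, 3.29 and 7.66 in the 12, 24 and 96 h lists. ZNF254 had 4.99, 4.96, 7.10 and 5.89. Beside the 6 members with a region throughout, the 48 h list held ZNF524, ZNF324 and ZNF428. ZNF524 had 7.98, 6.03, 5.25 and 5.43 in the DMSO, 12, 48 and 96 h lists. ZNF324 had 2.60, 2.59, 3.64 and 2.87 in the same lists, but not at 1 place. Its DMSO and 48 h values were at its start end. Those of 12 h and 96 h were at its far end, in regions within 1 kb of the start of ZNF446. ZNF428 had 3.97, 5.97 and 4.73 in the DMSO, 12 and 48 h lists and none at 96 h. These 8 members were called in 3 or 4 of the 5 lists. Another 9 were called at 12 h alone and 9 in DMSO and at 12 h alone. The shares of all genes with these orders of lists were not computed, so the counts describe the members alone.

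The fusion was at an end in DMSO and at every later time in 4 members (1.63%), against 8.92% of all genes. Of the 19 with it in DMSO this was 21.1%, against 46.2%. They were ZNF536 and the following 3. ZNF331, an imprinted KRAB gene, had fusion values of 4.70, 8.91, 12.1 and 3.89 from DMSO to 48 h, with its highest at 24 h. GLTSCR1 was not at an end of ZNF331 in DMSO or at 48 h, and had 4.72, 6.41 and 4.16 in the other lists. ZNF555 had fusion values of 4.32, 4.43, 3.02 and 5.38 and no GLTSCR1 region in any list. ZNF653, which encodes a repressor of nuclear receptor activity, had 4.75, 5.29, 6.20 and 4.71, each time with its strongest summit at the far end of the gene.

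In 8 members the fusion was at an end in DMSO and at no later time (3.25%), against 3.73% of all genes. Of the 19 with it in DMSO this was 42.1% (interval 20.3 to 66.5%), against 19.3% of all genes with it in DMSO. The 4 with the highest DMSO fold were ZNF443 at 4.44, ZNF554 at 4.30, ZNF497 at 3.57 and ZNF180 at 3.46. No member had the fusion at an end at every later time without DMSO, against 0.908%. The fusion's members thus split into 4 with an end region in every list and 15 that lacked it in at least 1 later list. An end region in every list need not be the same region. That of ZNF555 in DMSO was not overlapped by a region at 12 h or 24 h. Of the 18 fusion regions of DMSO, 3 were overlapped in every later list (16.7%), against 50.8% of the whole list.

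Along the chromosome the members formed 16 groups separated by gaps of over 1 Mb. The largest, ZNF628 to ZNF446 at 55.5 to 58.5 Mb, held 59 members. GLTSCR1 was at an end of 17 of these in DMSO, then 15, 7, 4 and 10, and the fusion at an end of 9 in DMSO, then 9, 3 and 3. That cluster held 9 of the 19 members with the fusion in DMSO. The ZNF175 to ZNF331 cluster at 51.6 to 53.6 Mb held 39 members, with GLTSCR1 at 8, 5, 3, 0 and 2 and the fusion at 1, 2, 1 and 2. The ZNF101 to ZNF254 cluster at 19.7 to 24.1 Mb, which holds ZNF91, had 37 members, with GLTSCR1 at 8, 7, 2, 0 and 3 and the fusion at 0, 1, 0 and 0. No region was called in any list for 28 of these 37.

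The ZNF565 to ZNF573 cluster at 36.2 to 37.8 Mb held 26 members, of which 22 had no region, with GLTSCR1 at 3, 2, 1, 0 and 1. In the ZNF653 to ZNF791 cluster at 11.5 to 12.6 Mb, 25 members had GLTSCR1 at 8, 5, 2, 1 and 2. At the short arm's end, 3 of the 5 members between ZNF554 and ZNF77, at 2.8 to 2.9 Mb, had the fusion in DMSO and 3 at 12 h, and 1 had GLTSCR1 in DMSO. The ZNF575 to ZNF296 cluster at 43.5 to 45.1 Mb had 24 members, with GLTSCR1 at 3, 1, 1, 1 and 0 and the fusion at 1 in DMSO alone. The 15 members from ZNF557 to ZNF846, at 7.1 to 9.8 Mb, had GLTSCR1 at 2, 4, 2, 1 and 2 and no fusion region at an end in any list. Among the 5 clusters of over 24 members, those with GLTSCR1 in DMSO ran from 3 of 26 to 8 of 25. With so few members these differences were not tested. Of the 8, ZNF490 and ZNF791 were counted on 1 region.

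**Figure D5:**
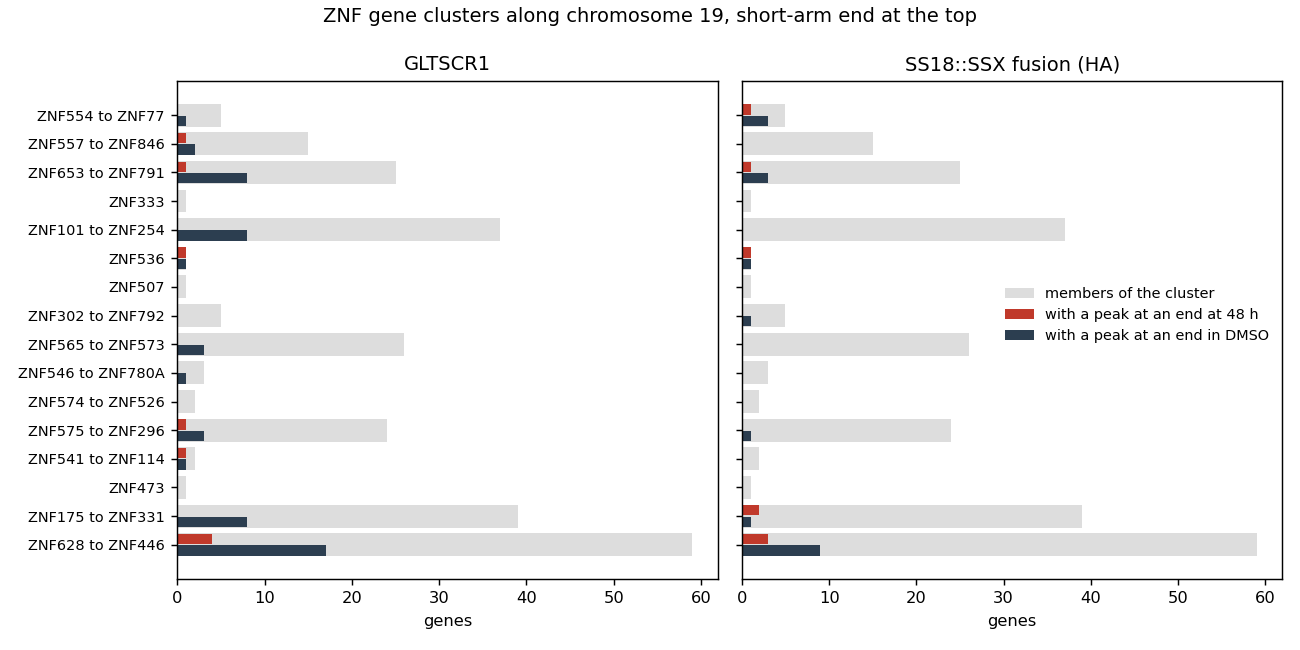
Number of genes (x axis) in each cluster along chromosome 19 (rows): all members in grey, with those that had GLTSCR1 (left) or the fusion (right) at an end at 48 h of WA-68 and in DMSO as coloured bars. The cluster of 59 members at the long arm's end held 17 of the 53 GLTSCR1 members and 9 of the 19 fusion members of DMSO.

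Other genes lying within the clusters were lower than those outside them. Of the 173 other protein-coding genes inside, 20.8% had GLTSCR1 at an end in DMSO, against 28.8% of the 1032 outside, and the 12, 24, 48 and 96 h lists gave 14.5% against 26.3%, 5.2% against 11.3%, 5.2% against 9.69% and 6.36% against 14.2%. For the fusion the values were 12.1% against 26.8% in DMSO, then 14.5% against 25.7%, 8.09% against 22% and 12.1% against 21.1%. The lower shares were thus also seen, for these genes, at positions between members. The members' own shares were 21.5%, 17.1%, 8.13%, 3.66% and 9.76% for GLTSCR1 and 7.72%, 8.13%, 2.85% and 3.25% for the fusion. Pooled over the clusters, the genes inside were thus below the members for GLTSCR1 in every list but that of 48 h. For the fusion the pooled genes were above the members in every list. Of the 173 genes inside, 54 lay in the ZNF557 to ZNF846 cluster, where no member had the fusion at an end. Those 54 made up 13 of the 21 with the fusion in DMSO and 16 of the 25 at 12 h. They made up 9 of the 14 at 24 h and 12 of the 21 at 48 h. The pooled fusion shares thus rested largely on 1 cluster. Whether the position or the gene family goes with the lower shares cannot be told apart here.

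The promoters of the 216 members held CCGGAAG in 44.9%, against 14.2% of 15842 promoters of protein-coding genes. CCAAT was in 54.2% of member promoters, against 36.4%, and both together in 27.3%, against 4.9%. GGGCGG was in 67.1%, against 58.3%, TGACGTCA in 3.24%, against 2.56%, and TGANTCA in 6.48%, against 5.7%. ZNF genes of other chromosomes had CCGGAAG in 33.2% and the other genes of chromosome 19 in 13%. A match is a string of letters in the window and does not show that a factor binds there.

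Members with GLTSCR1 at the start end in DMSO held CCGGAAG in 47.9% of 48 promoters, against 44% of the other 168. CCAAT was in 62.5%, against 51.8%, and GGGCGG in 79.2%, against 63.7%. Their median CpG count was 23, against 19 for the other 168, 20 for all 216 members and 22 for all protein-coding promoters. The 16 members with the fusion at the start end in DMSO had a median of 28.5 CpG. They held GGGCGG in 87.5%, against 67.1% of all members and 58.3% of all protein-coding promoters. ZNF627 and ZNF443 shared a run of 19 bases around their CCAAT box, ccctatCCAATcaggggcg, which ZNF878 also held, making 3 of the 216 members, and which none of the 15626 promoters of other genes held. ZNF627 had GLTSCR1 in all 5 lists, ZNF443 in DMSO alone, and ZNF878 had no region in any list, so the run was present in promoters with each outcome.

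The genes through which KRAB proteins act were also counted. Of 26 corepressor and H3K9 methylation genes, all found in the gene table, 15 had GLTSCR1 at an end in DMSO (57.7%), against 31.1% of all genes. The later lists gave 14 (53.8%), against 26.6%, 9 (34.6%), against 14.7%, 5 (19.2%), against 11.1%, and 7 (26.9%), against 15.2%. These differences were not tested. The 4 present in every GLTSCR1 list (15.4%, against 6.29%) were CHD3, CBX3, CBX5 and ATRX. CHD3, a remodelling ATPase of the NuRD complex that KRAB corepressors recruit, had 16.8, 11.3, 10.8, 9.61 and 14.3. CBX3, an HP1 protein, had 15.7, 13.0, 9.85, 7.67 and 6.52. TRIM28, the corepressor that binds the KRAB domain, had a region in DMSO alone, at 5.08. SETDB1, the methyltransferase TRIM28 recruits, had 4.19 in DMSO, 5.84 at 12 h and 3.35 at 96 h. The fusion was at an end of 6 of the 26 in DMSO (23.1%), against 19.3% of all genes, then 5 (19.2%), against 18.6%, 4 (15.4%), against 16.6%, and 4 (15.4%), against 18.6%, shares near those of all genes. CHD3 and CBX3 had it in every fusion list (7.69%, against 8.92%). The list includes ZNF274, itself a member.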

How the data were processed

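ChIP-seq peak lists of 9 libraries (5 GLTSCR1, 4 fusion) were used. Per the labels, positions are on GRCh38. The submitters' processing notes name BWA, SAMtools, Picard and MACS2 among their tools, without versions. How reads matching several places were treated is not given in the sources used here. Each deposited list names its peaks after 1 library. The columns the authors gave were a fold enrichment over background (a linear ratio), −log10 p and −log10 q values and a score, and the deposited lists also hold a summit offset. No list held a −log10 q under 3.00. Read depth is unknown.

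Entries with the same coordinates were joined into 1 region with its strongest summit, on chromosomes 1 to 22, X and Y. A region overlapping by at least 1 bp the window from 1 kb before to 1 kb after either end of a gene span counted as at an end, and one overlapping the rest of the span as in the body. The start end was the lower coordinate end for genes on the plus strand and the higher one for the minus strand. Strand was that of the RefSeq promoter, which can lie inside the span. Clusters began at gaps of over 1 Mb. Genes were named by rule: per antibody, the 6 with the highest DMSO fold among members at an end in every list, 4 among those in DMSO alone and 4 with body regions, plus members with both proteins in all shared lists. Other genes named, ZNF91, ZNF93, ZNF274, ZNF146, ZNF580 and ZNF878 among them, were chosen after their values were seen or for their known role. The members and all lists were chosen with earlier results of these data known. Zinc finger counts and protein lengths were not used here. The counting was tested on simulated data. Python 3.11.15, numpy 2.4.6, pandas 2.3.3, scipy 1.17.1 and matplotlib 3.10.9 were used. Alternatives were windows of 500 bp and 3 kb, a −log10 q of at least 5, lists of equal length, the summit inside the window, any listed start, and each later list left out.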

Additional observations from a re-analysis of the deposited data

How the results depend on the processing

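Of 136 alternative values over 24 results, 118 stayed within 1.5 times of the value reported and 18 moved further. With lists of equal length, GLTSCR1 in DMSO was at an end of 35 members in place of 53, and the fusion in the body alone of 3 at 12 h and 2 at 48 h. With a −log10 q of at least 5, the fusion was at an end of 12 members in DMSO and 13 at 12 h, in the body alone of 3 at 12 h and 2 at 24 h, and with GLTSCR1 at an end of 7 at 12 h. With windows of 500 bp, the body alone held GLTSCR1 in 1 member at 48 h and the fusion in 8 at 12 h and 3 at 48 h, and 2 members kept the fusion at an end throughout. With windows of 3 kb, the body alone held GLTSCR1 in 2 at 96 h and the fusion in 0 at 48 h, and both proteins were at an end of 5 at 24 h. With the summit inside the window, the body alone held GLTSCR1 in 1 and the fusion in 3 at 48 h. Without the GLTSCR1 48 h list, 11 members in place of 6 had it at every time. For these values the cause was not tested. The settings that left out a list or took any listed start were added after the data were seen. Apart from leaving out that 48 h list, they moved no count by over 1.5 times. The listed starts were counted over 216 members and set against counts over all 246. No paired analysis was possible because each group held 1 library. Peak lists hold no read depth, so a region could not be followed below the calling threshold.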
